A study of Mus musculus with 43 samples.

Results

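Toll-like receptors are membrane proteins with which myeloid cells detect microbial products. Lipid and protein ligands are met by receptors at the cell surface, while nucleic acids are met by receptors that reside in endosomes, and most of both kinds signal through the adaptor Myd88 to NF-kB and to interferon regulatory factors. In the lung, these receptors are known for the recognition of inhaled bacteria and viruses by macrophages, monocytes and dendritic cells. The 10 genes described here were the 9 Toll-like receptor genes Tlr1, Tlr2, Tlr3, Tlr4, Tlr6, Tlr7, Tlr8, Tlr9 and Tlr13 and the co-receptor gene Cd14, found by their symbols among the 37991 genes of the count table. The 5 surface members were Tlr1, Tlr2, Tlr4, Tlr6 and Cd14, and the 5 endosomal members were Tlr3, Tlr7, Tlr8, Tlr9 and Tlr13.

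The RNA came from myeloid cells of newborn C57BL/6 mouse lungs. Litters found within 6 h of birth were mixed and assigned at random to hyperoxia, at an inspired oxygen fraction of 0.9, or to normoxia, each for 1.5 days. The 4 sorted populations, all from digested, perfused lungs, were AM (SiglecF high, CD11c high), DC (MHCII high, CD11c high), Ly6Chi (Ly6C high, CD11c low) and Ly6Clo (Ly6C low, CD11c high) cells. No allele or agent other than oxygen is named in the labels, and the sex of the pups and the link of libraries to single pups are not given there, so the p-values measure the spread between libraries. Hyperoxia was represented by 5 libraries in each population, and normoxia by 6 libraries in AM, DC and Ly6Chi cells and by 5 in Ly6Clo cells. Each library carries one of 3 litter numbers, 93, 100 or 108, and in hyperoxia litter 100 gave 1 library per population (replicate 3), beside 2 from litter 93 and 2 from litter 108.

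The 43 libraries held between 551960 and 2403861 counts, and 5 of them had fewer than 1000000. Levels are given in CPM (counts per 1000000 counts of a library, with library totals scaled by TMM). The sort genes followed the gates. Siglecf averaged 85.3 CPM in hyperoxic and 130 CPM in normoxic AM cells, and at most 19.6 CPM in every other group. H2-Ab1 was highest in DC cells and Ly6c2 in Ly6Chi cells. The 12 AM markers, among them the sort gene Itgax, had summed medians of 2609 CPM in hyperoxic and 2282 CPM in normoxic Ly6Clo libraries. In AM cells these were 4830 and 3847 CPM. The 10 interstitial macrophage markers, which share Mrc1 with the AM list, had higher summed medians in Ly6Clo cells, at 2806 and 3017 CPM. These were 1492 and 1163 CPM in AM, 3133 and 2530 CPM in DC and 1386 and 1253 CPM in Ly6Chi cells. The 8 markers of nonclassical monocytes had summed medians of 907 CPM in hyperoxic and 1088 CPM in normoxic Ly6Clo cells. These lay below the 1285 and 1409 CPM of the Ly6Chi cells, so the Ly6Clo population is called here by its gate and not by a cell type. B cell markers reached 893 CPM in hyperoxic and 817 CPM in normoxic DC libraries, against at most 43.6 and 103 CPM in AM libraries. Epithelial markers were present in every group, with a highest sum of 2835 CPM in a normoxic AM library. These are relative amounts in bulk RNA, in which fewer cells of a type and less RNA per cell cannot be told apart.

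Tlr1 and Tlr6, adjacent genes on chromosome 5 whose products each pair with TLR2, share long identical stretches, and the counts of both are uncertain because reads inside them cannot be placed in one gene. Of the 50-base windows of the exons of Tlr1, 13.6% occur also in Tlr6, and 12.3% of those of Tlr6 occur in Tlr1. The 2 coding sequences share 6 identical runs of 50 bases or more, and the longest, 229 bases from base 1468 of the 2385 coding bases of Tlr1, is shown because it is the part in which the 2 genes cannot be told apart.
Tlr1 and Tlr6 shared run: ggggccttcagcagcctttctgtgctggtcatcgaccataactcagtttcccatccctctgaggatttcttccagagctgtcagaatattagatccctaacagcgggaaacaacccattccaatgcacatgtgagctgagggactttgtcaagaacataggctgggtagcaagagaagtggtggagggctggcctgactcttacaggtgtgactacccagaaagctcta

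Upstream sequences of 250 bases, from RefSeq on build GRCm38.p6, were matched for 7 of the 10 genes, at 9 start sites. RefSeq gives 2 start sites each for Tlr1 and Tlr6, of which the first is shown, and the second of each held no match. The upstream sequences of Tlr1 and Tlr6, the pair with shared coding runs, and that of Tlr3, whose DC libraries overlapped those of no other population, are shown from 5′ to 3′ along the strand of the gene. They lie on the minus strand at chr5:64933559-64933808, chr5:64959167-64959416 and chr8:45410381-45410630. Capitals mark a match to GAGGAAGT, the core bound by ETS factors such as PU.1, or to the interferon-stimulated response element, GAAA followed after any 2 bases by GAAA, both searched on either strand.
Tlr1 upstream: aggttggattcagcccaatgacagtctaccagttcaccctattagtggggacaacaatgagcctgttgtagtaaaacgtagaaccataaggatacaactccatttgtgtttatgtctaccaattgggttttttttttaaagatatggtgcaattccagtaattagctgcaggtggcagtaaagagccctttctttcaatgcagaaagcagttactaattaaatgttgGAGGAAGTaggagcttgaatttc
Tlr6 upstream: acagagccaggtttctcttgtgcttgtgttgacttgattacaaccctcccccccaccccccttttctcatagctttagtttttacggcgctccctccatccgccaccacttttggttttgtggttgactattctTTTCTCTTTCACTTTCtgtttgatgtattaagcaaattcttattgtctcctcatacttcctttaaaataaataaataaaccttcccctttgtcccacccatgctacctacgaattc
Tlr3 upstream: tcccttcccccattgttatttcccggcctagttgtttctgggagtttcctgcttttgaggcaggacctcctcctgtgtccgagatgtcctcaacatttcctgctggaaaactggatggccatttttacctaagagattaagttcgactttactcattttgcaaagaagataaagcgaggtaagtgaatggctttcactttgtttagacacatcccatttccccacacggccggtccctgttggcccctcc
The ETS match of Tlr1 begins 23 bases before the start site, the only 1 of the 9 member sites with this match, and 2.44% of 32851 promoters of the same length hold one. In Tlr6 a pair of interferon response matches overlap, both read on the strand opposite to the one shown. They begin 116 and 110 bases before the start site, again at 1 of the 9 member sites, and 2.98% of promoters hold such a match. The composite element of ETS and interferon regulatory factors, GGAA followed after any 2 bases by GAAA, matched none of the 9 member sites and 2.3% of all promoters. These matches are letters in a window and were not measured as binding.

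Tlr3, the endosomal receptor for double-stranded RNA, was a transcript of the DC population. It averaged 224 ± 87.6 CPM in hyperoxic DC cells and 306 ± 66.2 CPM in normoxic DC cells (SD, n = 5 and 6), while no other group averaged above 23.1 CPM. The 5 hyperoxic DC libraries held 297, 323, 186, 211 and 106 CPM, and the 6 normoxic ones ran from 231 to 416 CPM with a median of 295 CPM. In Ly6Chi cells the highest library held 17.6 CPM in hyperoxia and 38.5 CPM in normoxia. No DC library overlapped any library of another population. By edgeR's quasi-likelihood test, adjusted by Benjamini-Hochberg over all genes tested and called under 0.05, as are all calls below, Tlr3 in DC cells exceeded Ly6Chi cells 25.7-fold in hyperoxia (log2 4.68 ± 0.39, SE; adjusted p = 6.41e-08) and 20.9-fold in normoxia (log2 4.39 ± 0.42; adjusted p = 5.42e-08). Over Ly6Clo cells the excess was 9.39-fold in hyperoxia and 13.7-fold in normoxia. Among the other 3 populations, the normoxic levels of Tlr3 did not pass the test in any pair, and leaving out normoxic Ly6Chi replicate 4, at 38.5 CPM, brought both the AM and the Ly6Clo pair with Ly6Chi to adjusted p = 0.0466 and 0.0367. In hyperoxia, Ly6Chi cells held 0.366-fold the level of Ly6Clo cells (adjusted p = 0.00889), a call lost without litter 93 (adjusted p = 0.107). AM cells exceeded Ly6Chi cells 2.14-fold in hyperoxia (adjusted p = 0.0425). The AM call was lost when single libraries were left out (adjusted p up to 0.166) and without litter 93 (adjusted p = 0.373). In the annotation used for lengths, the exons of Tlr3 overlap an antisense gene, Gm45542, over 381 bases, and the library kit does not mark strand, so reads of both genes there cannot be told apart.

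**Figure D1:**
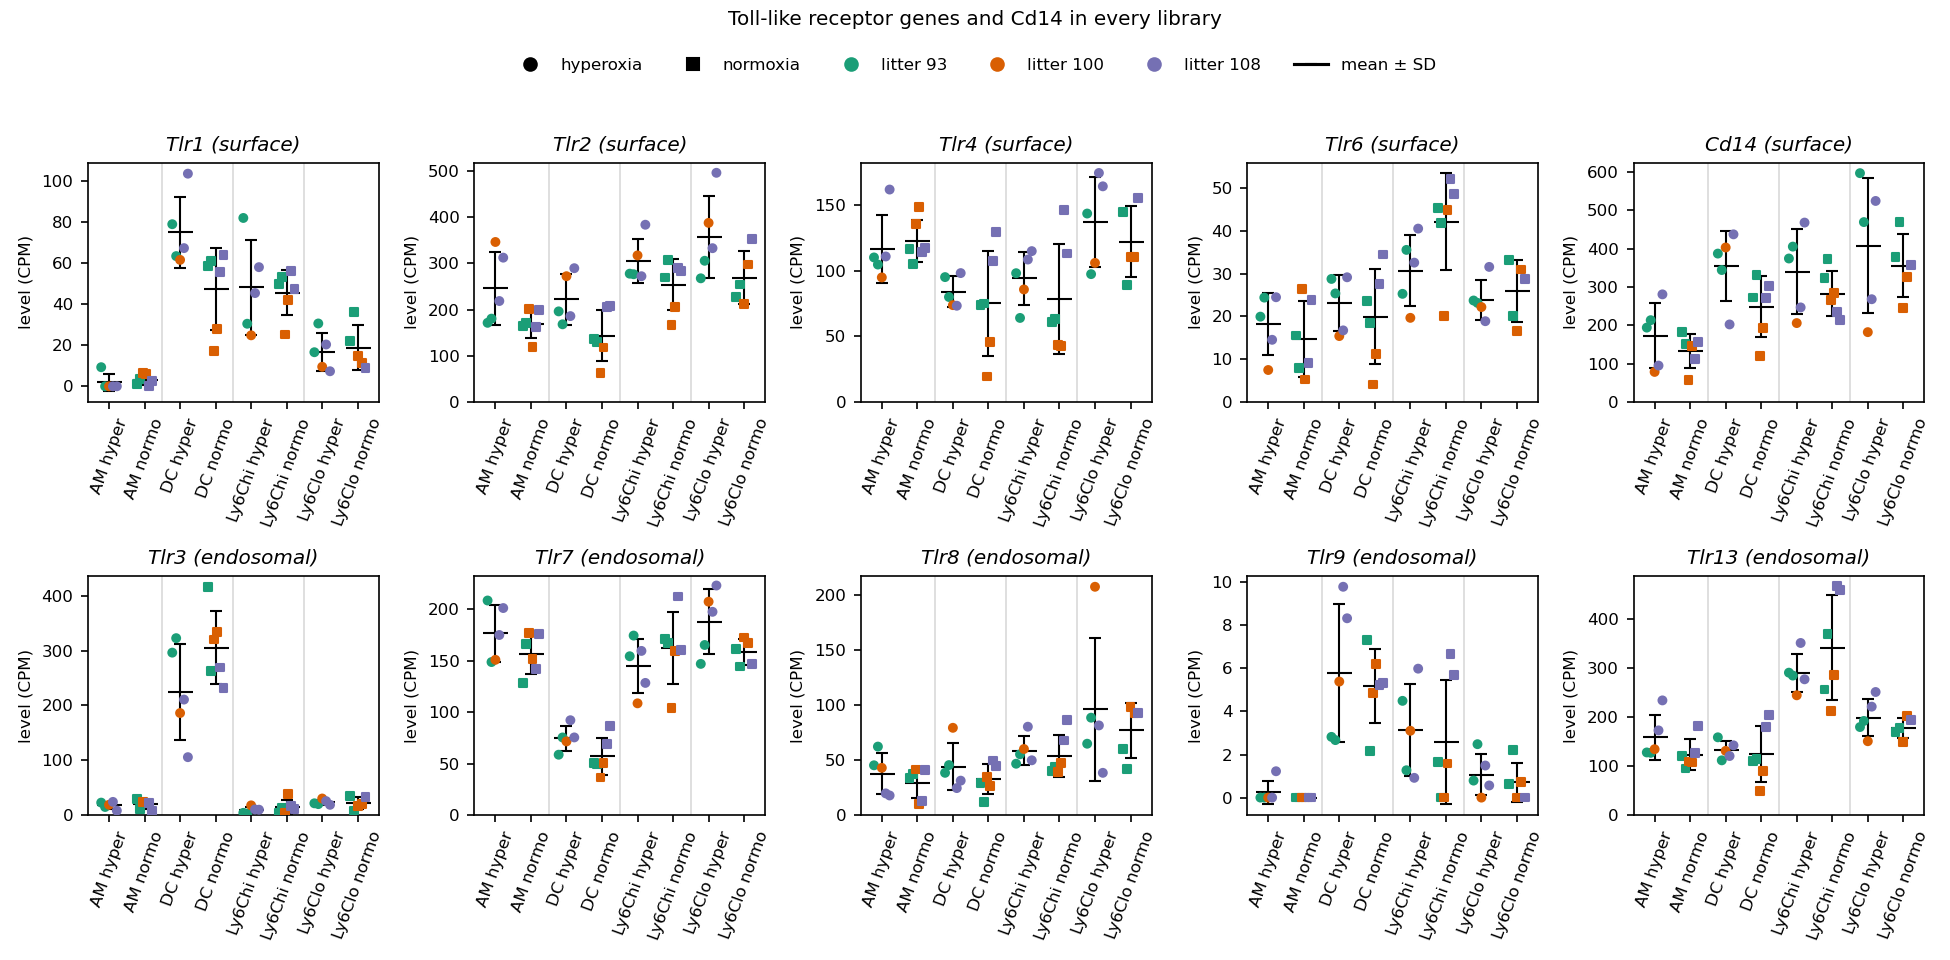
Level (CPM, vertical axes, linear) of each gene in each of the 43 libraries, by population and oxygen on the horizontal axes; circles are hyperoxic and squares normoxic libraries, coloured by litter, and black bars give the group mean and its SD. Tlr3 stands apart in DC cells at 106 to 416 CPM, Tlr1 is at 0 in 4 of 5 hyperoxic AM libraries, and Tlr7 is lowest in DC cells.

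Tlr7, the endosomal receptor for single-stranded RNA, had the opposite order, with DC cells lowest. Hyperoxic DC libraries held 58.6, 75.4, 71.6, 92.2 and 75.4 CPM, and normoxic ones 36.4 to 86.5 CPM with a median of 50.5 CPM. The other 3 populations averaged 145 to 188 CPM in hyperoxia and 157 to 163 CPM in normoxia, and their lowest single library, a normoxic Ly6Chi one at 104 CPM, lay above every DC library. AM cells exceeded DC cells 2.53-fold in hyperoxia (log2 1.34 ± 0.16; adjusted p = 9.63e-07) and 2.8-fold in normoxia (log2 1.49 ± 0.16; adjusted p = 2.42e-08). In pairs of the other 3 populations, Tlr7 did not pass the test in normoxia (adjusted p = 0.8 to 0.984) or in hyperoxia (adjusted p = 0.0758 to 0.918). Without hyperoxic Ly6Chi replicate 2, AM against Ly6Chi cells (adjusted p = 0.0321) and Ly6Chi against Ly6Clo cells (adjusted p = 0.0318) passed, and the Ly6Chi against Ly6Clo pair also passed without litter 93 (adjusted p = 0.0351).

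Tlr13, in mice the endosomal receptor for bacterial ribosomal RNA, was highest in Ly6Chi cells. It averaged 289 ± 38.8 CPM in hyperoxic and 341 ± 107 CPM in normoxic Ly6Chi cells. Hyperoxic Ly6Chi libraries held 290, 284, 244, 351 and 277 CPM, of which only the lowest fell under the highest hyperoxic Ly6Clo library, at 251 CPM. Over Ly6Clo cells, Ly6Chi cells held 1.45-fold more in hyperoxia (log2 0.53 ± 0.15; adjusted p = 0.00765) and 1.73-fold more in normoxia (log2 0.79 ± 0.17; adjusted p = 0.000828). The hyperoxic call was lost without litter 93 (log2 0.48, adjusted p = 0.169). So was the hyperoxic call of AM against Ly6Chi cells (adjusted p = 0.0507). Ly6Clo cells came second, and in normoxia exceeded both DC (adjusted p = 0.00299) and AM cells (adjusted p = 0.00809), although neither held without the litter term (adjusted p = 0.157 and 0.167). The AM call was also lost without litter 93 (adjusted p = 0.0995). The 11 neutrophil markers were also highest in Ly6Chi cells, with a median sum of 2317 CPM in hyperoxia and 1946 CPM in normoxia, against medians of at most 453 CPM in the other groups. Their part in the Tlr13 level, and in that of Tlr6, which was also highest in Ly6Chi cells, was not tested.

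Tlr8, a close relative of Tlr7 that in human cells detects RNA breakdown products, was highest in Ly6Clo cells. It averaged 96.1 ± 65.2 CPM in hyperoxic and 77.0 ± 25 CPM in normoxic Ly6Clo cells. The 5 hyperoxic values were 64.8, 88.5, 207, 81.4 and 38.3 CPM, and 1 library, replicate 3 of litter 100, held more than any other of the 43. AM cells held 0.425-fold the level of Ly6Clo cells in hyperoxia (adjusted p = 0.0174) and 0.374-fold in normoxia (adjusted p = 0.00263). The hyperoxic call for the AM pair was lost without Ly6Clo replicate 3 or AM replicate 4 (adjusted p up to 0.0518) and without the litter term (adjusted p = 0.0901). Leaving out any 1 litter also lost it (adjusted p up to 0.116). The normoxic AM call was lost without litter 100 (adjusted p = 0.0668). DC cells held 0.457-fold the level of Ly6Clo cells in hyperoxia and 0.395-fold in normoxia. The hyperoxic DC call was lost without Ly6Clo replicate 3 (adjusted p = 0.0509), without litter 93 (adjusted p = 0.0656) and without the litter term (adjusted p = 0.0602). Ly6Chi cells came second, and against Ly6Clo cells did not pass the test (adjusted p = 0.224 in hyperoxia and 0.155 in normoxia).

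Tlr9, the endosomal receptor for unmethylated CpG DNA, was the least abundant member and was too low to be tested in any comparison. Its 5 hyperoxic DC libraries held 2.82, 2.67, 5.39, 9.79 and 8.32 CPM, and the 6 normoxic ones 2.18 to 7.33 CPM. Over pooled libraries this was 6.27 CPM in hyperoxic DC cells (exact Poisson 95% interval 4.74 to 8.14) and 5.27 CPM in normoxic DC cells (3.99 to 6.83), intervals that cover counting error only. AM cells held 2 counts in hyperoxia, all in 1 library, and 0 counts in 7409733 in normoxia. For the normoxic AM group the exact Poisson 95% upper bound was 0.498 CPM, and 3 counts would be 0.405 CPM. Ly6Chi cells averaged 3.15 CPM in hyperoxia and 2.60 CPM in normoxia, and Ly6Clo cells 1.06 and 0.712 CPM. The median sum of the 8 B cell markers had the same first place, at 659 CPM in hyperoxic and 679 CPM in normoxic DC cells, and that of the 7 plasmacytoid dendritic cell markers was also highest in DC cells, at 376 and 398 CPM; both cell types are known for Tlr9, and their part in the Tlr9 level was not tested.

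Among the surface members, Tlr1, which with TLR2 binds triacylated lipopeptides, was lowest in AM cells. The 5 hyperoxic AM libraries held 9.30, 0, 0, 0 and 0 CPM, and the 6 normoxic ones 0 to 6.62 CPM with a median of 3.09 CPM. In DC cells, Tlr1 averaged 74.9 ± 17.4 CPM in hyperoxia and 47.4 ± 19.8 CPM in normoxia, and in Ly6Chi cells 48.1 ± 22.9 and 45.7 ± 11.1 CPM. Ly6Clo cells lay between, at 16.9 ± 9.30 CPM in hyperoxia and 18.7 ± 11 CPM in normoxia. No AM library reached any DC or Ly6Chi library. The highest hyperoxic AM library, at 9.30 CPM, lay above the lowest hyperoxic Ly6Clo library, at 7.33 CPM. In normoxia every AM library lay under the lowest Ly6Clo library, at 8.73 CPM. AM cells were below Ly6Clo cells in hyperoxia (adjusted p = 0.0063, and 0.0572 without litter 108) and in normoxia (adjusted p = 0.000289, and 0.0759 without litter 93). AM cells were below DC cells by a log2 difference of -5.58 ± 0.67 in hyperoxia (adjusted p = 1.75e-06) and of -3.87 ± 0.44 in normoxia (adjusted p = 6.39e-08). The hyperoxic AM group held 7 counts of Tlr1, all in replicate 1, and without that library the fitted difference was -9.82, so its size depends on that library and on the prior count. Pooled over libraries, Tlr1 was at 1.42 CPM in hyperoxic AM cells (exact Poisson 95% interval 0.571 to 2.92) and at 76.1 CPM in hyperoxic DC cells (70.4 to 82.0). DC and Ly6Chi cells did not pass the test against each other in either condition (adjusted p = 0.304 in hyperoxia and 0.989 in normoxia). Ly6Chi cells exceeded Ly6Clo cells 2.84-fold in hyperoxia (adjusted p = 0.0163, and 0.0608 without hyperoxic Ly6Chi replicate 1) and 2.48-fold in normoxia (adjusted p = 0.00769). Without litter 108, both calls were lost (adjusted p = 0.106 in hyperoxia and 0.071 in normoxia). DC cells exceeded Ly6Clo cells 4.52-fold in hyperoxia and 2.47-fold in normoxia. The normoxic DC call was lost without normoxic Ly6Clo replicate 5 (adjusted p = 0.0611) and without litter 108 (adjusted p = 0.134).

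Tlr6, which with TLR2 binds diacylated lipopeptides, was expressed at a low level in every population. It averaged 30.7 ± 8.29 CPM in hyperoxic and 42.1 ± 11.3 CPM in normoxic Ly6Chi cells, the highest of the 4 populations in each condition. Normoxic AM cells held 0.329-fold the Ly6Chi level (adjusted p = 0.000501) and normoxic DC cells 0.446-fold (adjusted p = 0.00954). The DC call was lost without litter 93 (adjusted p = 0.0728). Ly6Chi cells did not pass the test against Ly6Clo cells (adjusted p = 0.352 in hyperoxia and 0.196 in normoxia). In hyperoxia the 4 populations together did not pass the test for Tlr6 (adjusted p = 0.136). The AM against Ly6Chi pair alone did, at 0.621-fold (adjusted p = 0.0364). It lost its call without any 1 of 6 libraries (AM replicates 1, 3 and 4, and Ly6Chi replicates 2, 4 and 5; adjusted p up to 0.102). The call was also lost without the litter term (adjusted p = 0.0854) and without any 1 litter (adjusted p up to 0.257).

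Tlr2, the shared partner of both, was the most abundant of the Toll-like receptor members per kilobase of exon in all 8 groups except normoxic DC cells, where Tlr3 was higher. Its levels ran from 73.8 CPM per kb in DC cells to 119 in Ly6Clo cells in hyperoxia, and from 47.5 in DC cells to 89.3 in Ly6Clo cells in normoxia. In both conditions the order was Ly6Clo, Ly6Chi, AM and DC, and in hyperoxia no neighbours in that order passed the test. AM cells held 0.698-fold the level of Ly6Clo cells in hyperoxia and 0.603-fold in normoxia (adjusted p = 0.0342 and 0.00362). DC cells held 0.601-fold the level of Ly6Clo cells in hyperoxia and 0.491-fold in normoxia (adjusted p = 0.00109 and 6.86e-05). The normoxic AM call was lost without litter 108 (adjusted p = 0.0546), and the hyperoxic DC call without litter 93 (adjusted p = 0.0694). The hyperoxic AM call was lost without any 1 of 6 libraries (AM replicates 1, 2 and 4, and Ly6Clo replicates 1, 2 and 5; adjusted p up to 0.103) and without the litter term (adjusted p = 0.241). Without litter 93 or litter 108 it was lost too (adjusted p = 0.591 and 0.111). DC cells held 0.704-fold the level of Ly6Chi cells in hyperoxia and 0.543-fold in normoxia. The hyperoxic call of this pair was lost without any 1 of 5 libraries (DC replicates 2 and 4, and Ly6Chi replicates 1, 2 and 5; adjusted p up to 0.0805). The same call was lost without the litter term (adjusted p = 0.186), litter 93 (adjusted p = 0.486) or litter 108 (adjusted p = 0.0754).

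Tlr4, the lipopolysaccharide receptor, was higher in AM and in Ly6Clo cells than in DC cells in both conditions. In hyperoxia it averaged 117 ± 26.2 CPM in AM, 84.2 ± 11.9 in DC, 94.4 ± 20.2 in Ly6Chi and 137 ± 34.4 in Ly6Clo cells. In normoxia the averages were 123 ± 15.9 CPM in AM, 75.3 ± 40 in DC, 78.4 ± 42.1 in Ly6Chi and 122 ± 27.2 in Ly6Clo cells. AM cells exceeded DC cells 1.47-fold in hyperoxia (adjusted p = 0.00882) and 1.83-fold in normoxia (adjusted p = 0.0049). DC cells held 0.601-fold the level of Ly6Clo cells in hyperoxia (adjusted p = 0.00176) and 0.535-fold in normoxia (adjusted p = 0.0101). Without litter 108, both hyperoxic calls were lost (adjusted p = 0.219 for AM against DC and 0.136 for DC against Ly6Clo). Without libraries under 1000000 counts, hyperoxic AM against DC was lost too (adjusted p = 0.0654). In normoxia, AM against DC was lost without litter 100 (adjusted p = 0.137) and DC against Ly6Clo without litter 93 (adjusted p = 0.076). AM and Ly6Clo cells did not pass the test against each other (adjusted p = 0.52 in hyperoxia and 0.942 in normoxia). Normoxic DC and Ly6Chi values followed the litter, and the normoxic calls for Tlr4 were lost without the litter term, at adjusted p = 0.0654 for AM against DC, 0.086 for AM against Ly6Chi, 0.137 for DC against Ly6Clo and 0.147 for Ly6Chi against Ly6Clo cells.

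Cd14, the co-receptor that hands lipopolysaccharide to TLR4, was the most abundant member per kilobase in all 8 groups and was lowest in AM cells. It averaged 172 ± 84.8 CPM in hyperoxic and 134 ± 44.3 CPM in normoxic AM cells, while the other populations averaged 340 to 408 CPM in hyperoxia and 249 to 355 CPM in normoxia. AM cells held 0.49-fold the level of DC cells in hyperoxia (adjusted p = 0.0179) and 0.556-fold in normoxia (adjusted p = 0.000357), and against Ly6Clo cells 0.444-fold in hyperoxia and 0.382-fold in normoxia (adjusted p = 0.0303 and 4.91e-06). Hyperoxic AM libraries held 194, 213, 78.3, 94.8 and 281 CPM, so they overlapped the lowest hyperoxic library of every other population. The 3 hyperoxic calls for AM cells each lost their significance without single libraries, up to adjusted p = 0.0564 without AM replicate 3 for the DC pair, 0.0828 for the Ly6Chi pair and 0.0776 for the Ly6Clo pair; 5 libraries (AM replicates 1, 3 and 4, and Ly6Chi replicates 2 and 5) had this effect in the second and 7 (AM replicates 1, 2, 3 and 4, and Ly6Clo replicates 1, 2 and 5) in the third. Without the litter term, the Ly6Clo pair reached adjusted p = 0.0596. Without libraries under 1000000 counts, adjusted p rose to 0.254 for the DC pair, 0.301 for the Ly6Chi pair and 0.299 for the Ly6Clo pair. Without litter 93 it rose to 0.126, 0.224 and 0.569 in the same order, and without litter 100 the DC pair reached 0.0825. Of the other pairs, DC against Ly6Clo cells passed in normoxia (0.687-fold; adjusted p = 0.0315), and this was lost without any 1 of 6 libraries (DC replicates 1, 3 and 4, and Ly6Clo replicates 2, 4 and 5; adjusted p up to 0.0795) and without the litter term (adjusted p = 0.101).

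Counted over the members, 9 of 10 were tested between populations. In normoxia all 9 differed among the 4 populations, beside 62.4% of the 11979 genes tested, and in hyperoxia 8 of 9 did, all except Tlr6, beside 55.5% of 11504 genes. Of these 8, Cd14 (adjusted p = 0.0292) lost its call without any 1 of 5 libraries (AM replicates 1, 2, 3 and 4, and Ly6Clo replicate 5; adjusted p up to 0.0893), without libraries under 1000000 counts (adjusted p = 0.276) and without litter 93 (adjusted p = 0.338). Tlr2 lost its call without litter 93 (adjusted p = 0.143) and Tlr4 without litter 108 (adjusted p = 0.134). Between AM and DC cells in hyperoxia, 5 of 9 differed (2 higher and 3 lower in AM cells), beside 45.8% of genes (22.3% and 23.6%), and in normoxia 5 (2 and 3), beside 49.9% (22.4% and 27.5%). Between AM and Ly6Chi cells in hyperoxia, 5 of 9 differed (1 higher and 4 lower in AM cells), beside 46.7% of genes (22.3% and 24.5%), and in normoxia 7 (1 and 6), beside 52.2% (24% and 28.3%). Between AM and Ly6Clo cells in hyperoxia, 4 of 9 differed (0 higher and 4 lower in AM cells), beside 11.4% of genes (4.68% and 6.7%), and in normoxia 5 (0 and 5), beside 21.5% (7.28% and 14.2%). Between DC and Ly6Chi cells in hyperoxia, 4 of 9 differed (1 higher and 3 lower in DC cells), beside 19.5% of genes (9.79% and 9.71%), and in normoxia 5 (1 and 4), beside 28.7% (14.2% and 14.4%). Between DC and Ly6Clo cells in hyperoxia, 7 of 9 differed (2 higher and 5 lower in DC cells), beside 24.4% of genes (11.3% and 13.2%), and in normoxia 8 (2 and 6), beside 24.4% (11.7% and 12.7%). Between Ly6Chi and Ly6Clo cells in hyperoxia, 4 of 9 differed (2 higher and 2 lower in Ly6Chi cells), beside 30.3% of genes (15.2% and 15.1%), and in normoxia 3 (2 and 1), beside 30.7% (15.7% and 15%). Comparisons within a condition share libraries and are not independent.

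Shares were taken of the summed level, per kilobase of exon, of the Toll-like receptor members. The 4 surface receptors without Cd14 made up 44.5% to 64.8% of it in hyperoxic DC libraries and 24.8% to 48.7% in normoxic DC libraries. The means in hyperoxia were 52.9% ± 5.89 in AM, 52.3% ± 7.75 in DC, 53.6% ± 5.31 in Ly6Chi and 55.4% ± 3.87 in Ly6Clo cells (SD, n = 5 each), so the populations overlapped. In normoxia they were 51.3% ± 1.78 in AM, 40.2% ± 9.11 in DC, 47.4% ± 3.33 in Ly6Chi and 53.6% ± 3.84 in Ly6Clo cells. Of the sum of the endosomal members, Tlr3 alone was 39.5% ± 11 in hyperoxic DC cells and 53.2% ± 12.5 in normoxic DC cells. Its mean share in the 6 other groups was 1.45% to 4.87%. These shares set 1 gene against another and depend on the exon lengths used. They leave out receptors that are not members, such as Tlr11, which was confined to DC cells apart from traces, so they are not shares of all Toll-like receptors.

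**Figure D2:**
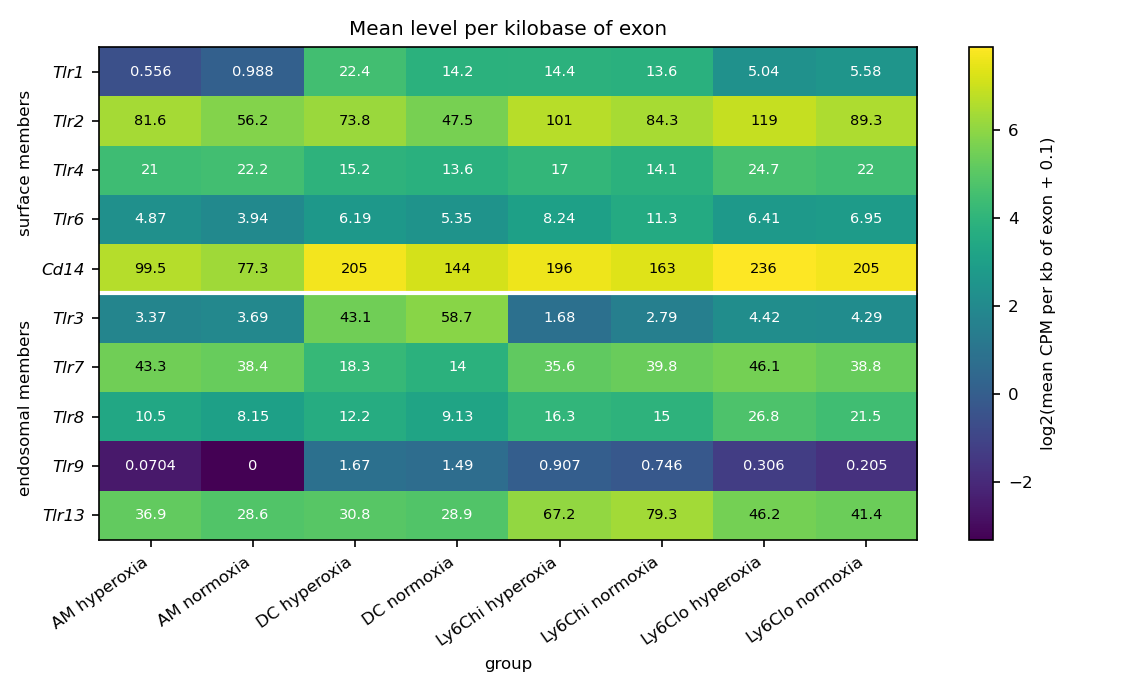
Mean level of each gene (rows, surface members above the white line) in each group (columns), in CPM per kilobase of exon as the printed number, with colour on a log2 scale. Cd14 is the highest in every group, Tlr2 runs from 47.5 to 119, and Tlr9 is lowest in every group.

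Hyperoxia, compared with normoxia within litter, changed no member past the threshold in any population. None of 8 members tested in AM cells was called (beside 0.11% of 9986 genes), and none of 9 in DC, Ly6Chi or Ly6Clo cells (beside 0% of 11274, 10844 and 10188 genes). At an unadjusted p under 0.05 there were 990 genes in AM, 998 in DC, 591 in Ly6Chi and 540 in Ly6Clo cells, and DESeq2 called 110, 20, 5 and 1. The members under 0.05 unadjusted were 2 in AM cells (Tlr2 and Tlr13), 4 in DC cells (Tlr1, Tlr2, Tlr3 and Tlr7), 1 in Ly6Chi cells (Tlr6) and 1 in Ly6Clo cells (Tlr2). DESeq2 and limma voom also called no member. The changes ranged from -0.72 to 0.65 on the log2 scale. Whether the hyperoxia change differed between populations was tested by an interaction, which called no member (beside 0% of 12529 genes; unadjusted p = 0.0922 to 0.953), and 617 genes had an unadjusted p under 0.05.

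Tlr2 had a positive difference in all 4 populations. In AM cells it was 0.53 ± 0.18 (log2, SE; adjusted p = 0.294), in DC cells 0.65 ± 0.22 (adjusted p = 0.482), in Ly6Chi cells 0.24 ± 0.14 (adjusted p = 0.758) and in Ly6Clo cells 0.36 ± 0.17 (adjusted p = 0.86). Hyperoxic AM libraries held 171, 180, 347, 219 and 313 CPM, and normoxic ones 118 to 202 CPM with a median of 167 CPM, so 2 of the hyperoxic libraries lay inside the normoxic range. In DC cells the hyperoxic values were 196, 168, 272, 186 and 290 CPM and the normoxic ones 63.1 to 207 CPM with a median of 133 CPM. Hyperoxic Ly6Clo libraries held 268, 306, 388, 333 and 497 CPM, and normoxic ones 228, 255, 211, 298 and 354 CPM. Within litters, the hyperoxic mean was above the normoxic mean in 3 of 3 litters in AM, DC and Ly6Clo cells and in 2 of 3 in Ly6Chi cells. Litter 100 had the widest difference in AM (1.16), DC (1.65), Ly6Chi (0.77) and Ly6Clo cells (0.63), each resting on 1 hyperoxic library. Without that litter the estimates were 0.33 in AM, 0.34 in DC, 0.05 in Ly6Chi and 0.25 in Ly6Clo cells, and without single libraries the lowest in Ly6Chi cells was 0.04. Median epithelial and endothelial sums were lower in hyperoxia in all 4 populations, and their part in the Tlr2 differences was not tested.

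**Figure D3:**
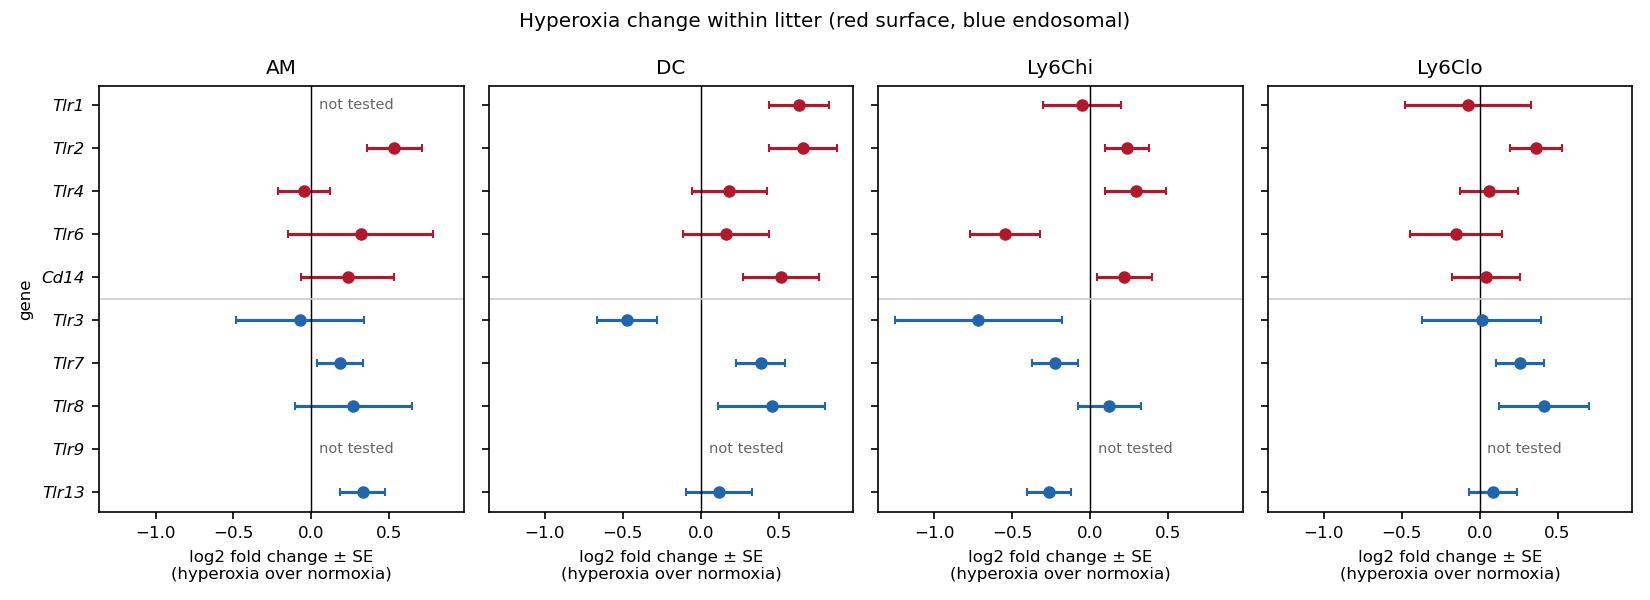
Log2 fold change of each gene in hyperoxia over normoxia within litter (horizontal axes, points) with its standard error (bars), by population; red marks surface and blue endosomal members. None passed the threshold, and Tlr2 lies right of 0 in all 4 panels at 0.24 to 0.65.

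In DC cells, 8 of 9 members had positive differences and Tlr3 a negative one, with a median of 0.38 over the 9. Tlr1 was at 0.63 ± 0.19 (adjusted p = 0.445), Cd14 at 0.52 ± 0.24 (adjusted p = 0.579), Tlr7 at 0.38 ± 0.15 (adjusted p = 0.539) and Tlr3 at -0.47 ± 0.19 (adjusted p = 0.546). The 5 hyperoxic DC libraries held 78.9, 63.4, 61.6, 67.3 and 104 CPM of Tlr1, and the normoxic ones 17.0 to 64.0 CPM with a median of 57.2 CPM. The 2 lowest normoxic values, 17 and 27.9 CPM, were replicates 3 and 4 of litter 100. Replicate 3 was also the lowest normoxic DC library for Tlr2, Tlr4, Tlr6, Cd14, Tlr7 and Tlr13. Its summed epithelial markers were 2306 CPM and those of replicate 4 were 1742 CPM, against 227 CPM in the hyperoxic DC library of that litter and 312 to 1079 CPM in the other normoxic DC libraries, while the other hyperoxic DC libraries held 454 to 2133 CPM; the part of this in the result was not tested. The summed markers of interstitial macrophages were 2989, 3155, 3544, 2589 and 3133 CPM in hyperoxic DC libraries, and 2524, 3078, 2245, 2280, 2569 and 2536 CPM in normoxic ones. The summed markers of dendritic cells were 5668, 6321, 5334, 4829 and 4716 CPM in hyperoxic DC libraries, and 6484, 6062, 6478, 6205, 5191 and 4789 CPM in normoxic ones. Median sums of the first were thus higher, and of the second lower, in hyperoxia, with overlapping groups, and their part in the differences of the members was not tested. Without litter 100, the differences were 0.40 for Tlr1, 0.22 for Cd14, 0.27 for Tlr7 and -0.37 for Tlr3. Without the filter on low counts, 4 DC members were called (Tlr1, Tlr2 and Cd14 higher, Tlr3 lower; adjusted p = 6.89e-05 to 0.0401), beside 369 genes in all.

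In Ly6Chi cells, Tlr6 had the smallest unadjusted p, with a difference of -0.55 ± 0.23 (adjusted p = 0.758). The 5 hyperoxic libraries held 25.3, 35.5, 19.7, 32.6 and 40.5 CPM, and the normoxic ones 20.2 to 52.1 CPM with a median of 45.0 CPM. It was lower in hyperoxia in 3 of 3 litters, by 0.46 to 0.60 on the log2 scale of litter means. Tlr13 was at -0.27 ± 0.14 in Ly6Chi cells and at 0.33 ± 0.15 in AM cells (adjusted p = 0.758 and 0.47). Tlr1 was not tested in AM cells.

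The pathway around the receptors was described from 67 listed genes found in the table, of which 64 were tested between populations. Of the interferon regulatory factors, which carry Toll-like receptor signals to the nucleus, 5 of 5 were lower in AM than in DC and than in Ly6Chi cells in both conditions. Of all genes tested, 23.6% in hyperoxia and 27.5% in normoxia were lower in AM than in DC cells, and 24.5% and 28.3% were lower in AM than in Ly6Chi cells. Irf8 averaged 126 CPM in hyperoxic and 114 CPM in normoxic AM cells, against 768 and 906 CPM in DC cells. Irf5 averaged 115 CPM in hyperoxic and 93.8 CPM in normoxic AM cells, against 556 and 552 CPM in Ly6Chi cells. Unc93b1, the chaperone that carries the endosomal receptors to endosomes, was singled out after its values were seen: it averaged 217 CPM in hyperoxic and 178 CPM in normoxic AM cells, against 726 and 702 CPM in DC cells, a normoxic log2 difference of -1.97 ± 0.17 (adjusted p = 7.95e-10). Cnpy3, a chaperone for surface and endosomal receptors, was likewise lower in normoxic AM than in DC cells (log2 -1.45 ± 0.13). Rab7b, a small GTPase of late endosomes, averaged 451 CPM in hyperoxic and 505 CPM in normoxic DC cells, above all other groups, which averaged at most 142 CPM.

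Among enzymes of the endosome, 6 of 8 were higher in AM than in DC cells in hyperoxia, beside 22.3% of all genes, and 5 of 8 in normoxia, beside 22.4%. Ctsl, a protease that cleaves endosomal receptors, averaged 730 CPM in hyperoxic and 603 CPM in normoxic AM cells, against 329 and 223 CPM in DC cells. Pld3, an exonuclease that degrades endosomal single-stranded DNA, averaged 690 CPM in hyperoxic and 615 CPM in normoxic AM cells, against 88.1 and 91.9 CPM in Ly6Chi cells. Of the 16 kinases and ubiquitin ligases, 3 were lower in AM than in DC cells in hyperoxia, beside 23.6% of all genes, and 7 in normoxia, beside 27.5%. Ikbke was higher in Ly6Chi cells, at 107 and 110 CPM in hyperoxia and normoxia, than in DC cells, at 43.6 and 32.9 CPM. The ubiquitin ligase Peli1 was lower in normoxic AM than in Ly6Chi cells (log2 -1.20 ± 0.14).

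Of the co-receptors, Ly86, the partner of the related receptor RP105, was lower in AM cells than in the other 3 populations in normoxia, at 91.0 CPM against 346 to 434 CPM. Clec7a, the receptor for fungal beta-glucan, was higher in AM cells, at 1419 CPM in hyperoxia and 1062 CPM in normoxia, than in DC cells, at 749 and 499 CPM. The adaptor Scimp was lower in Ly6Chi cells, at 38.3 CPM in hyperoxia and 21.0 CPM in normoxia, than in every other population. Pik3ap1, an adaptor that links receptors to phosphoinositide kinase, was higher in normoxic AM than in Ly6Chi cells (log2 1.70 ± 0.13). Of the 12 inhibitors, 6 were lower in AM than in DC cells in hyperoxia, beside 23.6% of all genes, and 10 in normoxia, beside 27.5%. Among the 10 were Dusp1 (log2 -1.68 ± 0.15), a phosphatase of MAP kinases, and Zfp36 (log2 -1.06 ± 0.11), which destabilises cytokine transcripts. The receptors Tlr11 and Tlr12, which in mice bind the profilin of protozoa, were confined to the DC population apart from traces: Tlr11 averaged 83.8 CPM in hyperoxic and 126 CPM in normoxic DC cells and at most 4.47 CPM elsewhere, and Tlr12 averaged 8.24 and 9.61 CPM in DC cells and at most 0.222 CPM elsewhere.

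**Figure D4:**
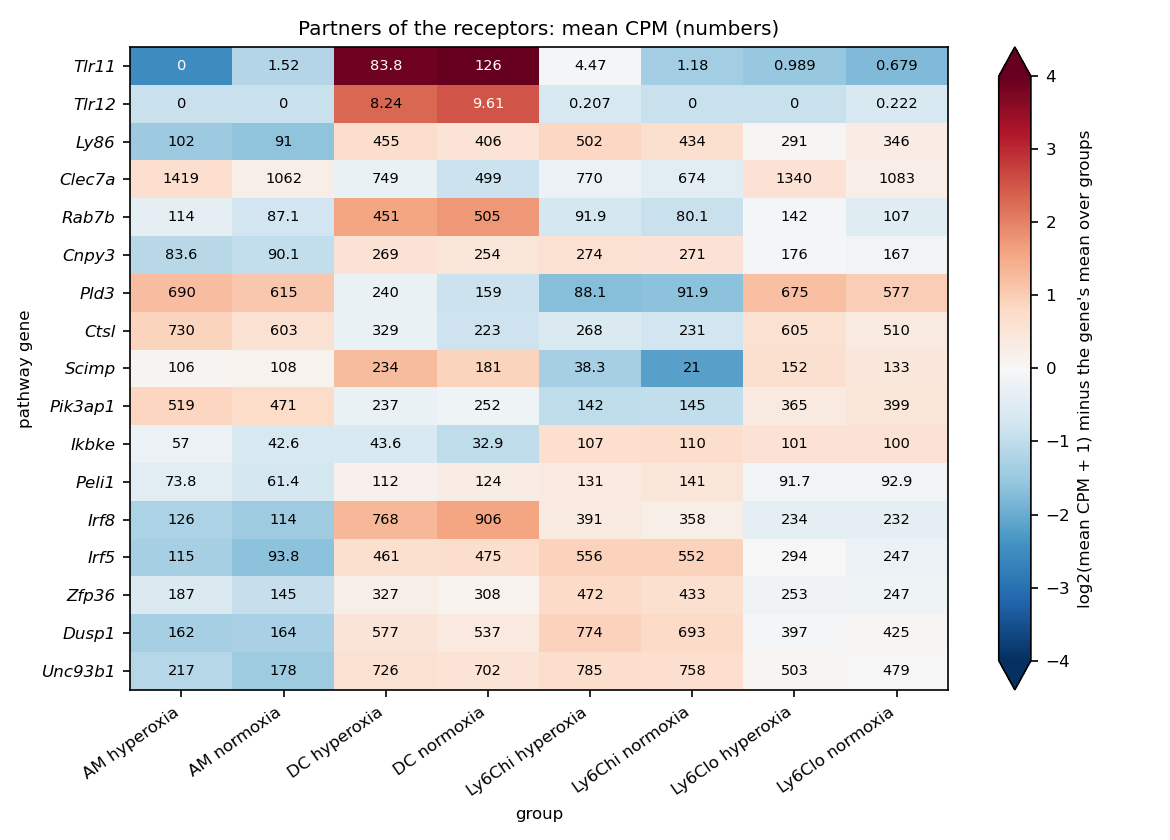
Mean level in CPM (printed numbers) of the named pathway genes (rows) in each group (columns), with colour showing the log2 distance from the gene's mean over the groups. The AM columns are lowest for Irf8, Irf5, Unc93b1 and Ly86, at 91.0 to 217 CPM, and the DC columns hold nearly all of Tlr11 and Tlr12.

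No pathway gene was called for hyperoxia in any population, nor for a difference of its change between populations. The smallest unadjusted p in AM and DC cells belonged to Ly96, which encodes the MD-2 subunit that binds lipopolysaccharide on TLR4, with log2 differences of 0.53 ± 0.16 in AM cells and 0.50 ± 0.15 in DC cells (adjusted p = 0.24 and 0.445). Next in AM cells came Clec7a (0.43 ± 0.14) and Nfkbia (0.58 ± 0.19), the inhibitor of NF-kB, and in DC cells Tlr11 (-0.60 ± 0.18) and Pld3 (0.60 ± 0.19). In Ly6Chi cells these places were held by Irf1, a transcription factor induced by interferon (0.53 ± 0.18), by Clec7a (0.20 ± 0.09) and by Ly96 (0.41 ± 0.19). In Ly6Clo cells they were held by Irf1 (0.81 ± 0.28), by Tnfaip3, a deubiquitinase that restrains NF-kB (0.66 ± 0.26), and by Rab7b (0.39 ± 0.15). The median log2 difference over the pathway genes tested was 0.15 in AM, -0.05 in DC, 0.03 in Ly6Chi and 0.02 in Ly6Clo cells, against 0.25, 0.38, -0.05 and 0.06 over the members and between -0.01 and 0.00 over all genes tested. For a change that differs by population, Tlr11, Tab2 and Traf3 had the smallest unadjusted p, at 0.0277, 0.0499 and 0.0665.

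Across the 43 libraries, which share populations and litters, the genes whose log2 CPM was most like that of each member were described by Pearson's r, with no test, among 12528 other genes (12529 for Tlr9). For Tlr3 they were Plekha5 (r = 0.92), Cyp8b1 (0.92) and Sept3 (0.91). Tlr1 ran closest to Sdccag8 (0.90), Lpar6 (0.90) and Tmem173 (0.89), the gene of the DNA-signalling adaptor STING. Tlr7 was most like Abcd2 (0.92), Gcnt2 (0.89) and Sirpa (0.89), and Tlr13 most like Dok3, Fgr and Lcp2 (0.88 to 0.90). The closest to Tlr2 were Rnf149, Grina and Msr1 (0.81 to 0.86), to Tlr4 Adam9, Pla2g15 and Cd300lf (0.77 to 0.85), and to Tlr6 Tmem170b, Prkcd and Zdhhc9 (0.80 to 0.82). Cd14 ran closest to Tpi1, Ntpcr and Rcbtb2 (0.83 to 0.85), Tlr8 to Atp7a, Usp8 and Clec4a3 (0.69 to 0.72), and the sparse Tlr9 to Tspan33, Pak1 and Ppm1m (0.82).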

How the data were processed

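Reads of SMART-Seq libraries made with Nextera XT, without molecular identifiers or strand marking per the labels' protocols, were turned by the authors into the raw counts per gene that they deposited. The submitters' processing notes name TopHat, HTSeq 0.4.1, FastQC, Picard, SAMtools and build NCBIM37; their roles and the annotation release are not given in the sources used here. Symbols, exonic lengths and chromosomes came from GENCODE M21.

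Genes were tested with edgeR 4.0.16 (R 4.3.3), with TMM scaling, filterByExpr (minimum count 10, total 15) and a robust quasi-likelihood fit with litter as a block, since the labels give each library's litter number. p-values were adjusted by Benjamini-Hochberg over all genes tested and called under 0.05. Each hyperoxia comparison was fitted on 1 population, each population comparison on 1 condition, and the interaction on all 43 libraries. Fold changes used a prior count of 0.125 and log2 CPM a prior count of 1. CPM in the text is per library total scaled by TMM, except the values pooled over libraries, which are per total counts. Alternatives were DESeq2 1.42.0, limma 3.58.1 voom, no filter, no litter term, a fit of all libraries, and leaving out shallow libraries, each litter and each library. The procedure was run on simulated counts without a litter effect, so that run does not measure how well it finds hyperoxia changes in these data. The highest count of any gene was 4012 and of any member 1049. Replicates of a group differed by more than sampling noise (chi-square per degree of freedom 2.2 to 27.5 over 95 pairs). Figures used Python 3.11.15 with matplotlib 3.10.9.

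The members and gene lists were chosen with earlier results of these data known. Named were all 10 members, pathway genes called for hyperoxia or its interaction (none) and the 3 of smallest p in each such comparison, the 2 called genes of largest F per pathway list in normoxia, the 3 genes most correlated with each member, and the sort genes.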

Additional observations from a re-analysis of the deposited data

Results flagged for a closer look

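Over 79 sets of one gene in one group, 5 values lay far from the rest of their group by Dixon's criterion on log2 CPM. Chance flags about 1 in 20 groups of normally distributed values, a rate that does not hold for tied values. Where all other libraries are at 0, as for Tlr1 and Tlr9 in hyperoxic AM cells, any count above 0 is flagged. Tlr1 in hyperoxic AM replicate 1 was at 9.30 CPM, with the other 4 libraries at 0. In normoxic Ly6Chi replicate 3, Tlr1 was at 25.2 CPM, with the others at 42.2 to 56.3 CPM, and Tlr6 was at 20.2 CPM, with the others at 41.9 to 52.1 CPM. Tlr9 was at 1.22 CPM in hyperoxic AM replicate 5, with the other 4 libraries at 0, and at 2.18 CPM in normoxic DC replicate 2, with the others at 4.86 to 7.33 CPM. No member's hyperoxia change differed between populations by the interaction test.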

How the results depend on the processing

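All 590 member levels stayed within 1 SD of their group under the alternatives that give levels. Those that left out 1 library could not do otherwise, because leaving out 1 value cannot move a mean by 1 SD. Only the levels without TMM scaling or with RLE size factors could have differed. No called difference turned its direction. Of 1194 member values for hyperoxia under an alternative, 1190 kept their side of the threshold and 4 passed it, those of DC cells without the filter on low counts; of 3294 values for population pairs, 3131 did, 128 lost a call and 35 gained one. Sign changes of uncalled values numbered 48 for hyperoxia and 74 for population pairs. Depth limits Tlr9, and Tlr1 in AM cells. The cause of the shifts below was not tested.

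Genes called for hyperoxia numbered 110 in AM, 20 in DC, 5 in Ly6Chi and 1 in Ly6Clo cells by DESeq2, and 17 by its interaction test; limma voom called 1 gene for the interaction. Without the filter on low counts, they numbered 325, 369 (4 of them members), 235 and 173, and 524 for the interaction. Without libraries under 1000000 counts, AM cells had 0; without litter 93, AM, DC and Ly6Chi cells had 0, 2 and 1, and without litter 108 AM cells had 5. In the fit of all 43 libraries, AM, Ly6Chi and Ly6Clo cells had 27, 1 and 3.

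The litter term served as the replicate block, since the labels give the litter. Without it, DC against Ly6Clo in normoxia lost the calls of Tlr4, Cd14 and Tlr13, as given above. In hyperoxia without it, AM against Ly6Clo had 391 genes and 1 member, DC against Ly6Chi 1298 genes and DC against Ly6Clo 1727 genes. Other calls of members that it changed stand in the report, and Tlr4 among the 4 normoxic populations reached adjusted p = 0.0778.

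Without litter 93 in hyperoxia, genes called numbered 3036 among the 4 populations, 2798 for AM against DC, 2929 (2 members) for AM against Ly6Chi, 16 (1 member) for AM against Ly6Clo, 494 (2 members) for DC against Ly6Chi, 1173 (4 members) for DC against Ly6Clo and 1618 (2 members) for Ly6Chi against Ly6Clo. In normoxia they numbered 1639 (3 members) for AM against Ly6Clo, 2045 for DC against Ly6Chi, 1736 for DC against Ly6Clo and 2103 for Ly6Chi against Ly6Clo. Without litter 108 in hyperoxia, AM against Ly6Clo lost the calls of Tlr1, Tlr2 and Tlr8 (adjusted p = 0.0572, 0.111 and 0.0553). Genes called then numbered 1818 for DC against Ly6Clo and 2217 for Ly6Chi against Ly6Clo. Without that litter in normoxia, they numbered 3959 for AM against DC, 1432 for AM against Ly6Clo and 2200 for Ly6Chi against Ly6Clo. By limma voom, AM against Ly6Chi in hyperoxia lost the calls of Tlr6 and Tlr3 (adjusted p = 0.0562 and 0.0909). Without libraries under 1000000 counts, this pair lost Tlr6, Cd14 and Tlr3 (adjusted p = 0.135, 0.301 and 0.243) and gained Tlr8 (adjusted p = 0.0172). In that setting AM against Ly6Clo had 128 genes and 1 member.

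Leaving out 1 library at a time gave 5 to 39 genes for hyperoxia in AM cells (beyond 1.5 times the count of 11 without AM hyperoxia replicate 3 or 4 or AM normoxia replicate 4, 5 or 6), 0 to 23 in DC cells (above 0 only without DC hyperoxia replicate 4), 0 to 1 in Ly6Clo cells and 0 to 5 for the interaction. In hyperoxia it gave 4882 to 5517 genes with 2 to 6 members for AM against Ly6Chi, and 653 to 1642 genes with 1 to 4 members for AM against Ly6Clo.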
